A study of Homo sapiens with 6 samples.

Results

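The genes described here are 9 members of the MHC class I antigen presentation pathway, namely HLA-B, HLA-C, HLA-E, B2M, TAP1, TAP2, TAPBP, PSMB8 and PSMB9. They were picked by symbol, with no threshold on a measured value, from the 20332 genes of a raw count table, and each symbol matched 1 row. The table holds RNA sequencing of Huh-7, an established human hepatocellular carcinoma cell line. One group was Huh-7 with stable lentiviral overexpression of RAC3, a small GTPase (3 samples, RAC3 overexpression 1 to 3), and the other was the negative control (3 samples, negative control 1 to 3), labelled as wild type. The genotype labels of RAC3 overexpression 2 and 3 name other genes than RAC3, whereas their titles and the study give RAC3. The study calls the 3 RNA samples of a group independent, without saying whether they came from separate cultures, and the p-values measure the spread between these samples.

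MHC class I molecules display peptides from inside the cell to CD8 T cells and NK cells. Proteins are cut into peptides by the proteasome, in which PSMB8 and PSMB9 are catalytic subunits that replace constitutive ones after interferon gamma. TAP1 and TAP2 form the transporter that moves peptides into the endoplasmic reticulum, TAPBP (tapasin) tethers class I molecules to it, and each class I molecule is a heavy chain such as HLA-B, HLA-C or HLA-E bound to B2M, the invariant light chain. HLA-B and HLA-C are classical heavy chains, and HLA-E presents mainly leader peptides of other class I chains to the NKG2A receptor. Hepatocytes are known for low class I levels, and loss of class I presentation is a known route of immune escape in tumours.

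The samples held from 13855762 to 18199888 counts, and a count of 0 allows up to 3 counts, which is 0.165 to 0.217 CPM (normalised for library size) and covers counting error only. RAC3 had 33.3 ± 2.16 normalised CPM in the negative control and 233 ± 7.11 with RAC3 overexpression (SD, n = 3 each; log2 fold change 2.81, SE 0.0574, adjusted p = 9.64e-18 in edgeR's quasi-likelihood test). RAC3 lay between 225 and 240 normalised CPM in the RAC3 overexpression samples, including both whose genotype label names another gene. The summed normalised CPM of 8 hepatocyte genes was 5020 to 5100 in the negative control and 4480 to 4950 with RAC3 overexpression. That of 9 leukocyte markers, whose largest part was CD14, was 43.9 to 51.1 and 40.9 to 43.0, and 3 of the 9 had at most 3 counts in all samples together, with MS4A1 at 0. That of 6 fibroblast and stellate cell markers, whose largest part was LUM, was 233 to 249 and 272 to 285, and that of 5 endothelial markers was 2.53 to 3.15 and 2.7 to 3.76. The part of these sums in the class I results was not tested. Several single markers moved with RAC3 overexpression, among them the hepatocyte genes TF (log2 fold change −0.56), TTR (−0.26), APOB (0.20) and AFP (0.16), the myeloid markers CD14 (−0.37) and CD68 (0.47), and the matrix genes COL1A2 (0.51), LUM (0.22) and COL1A1 (−0.22). LUM, AFP, CD68 and COL1A1 passed in 14, 13, 11 and 8 of 15 other settings of the processing.

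All members but B2M lie in the MHC on the short arm of chromosome 6, and B2M is on chromosome 15. RefSeq promoter windows (GRCh38.p14, 250 bases before to 50 after a start) were found for 8 of the 9, all but HLA-E, in 10 windows. Shown first are the promoters of the classical heavy chains HLA-B (chr6:31357130-31357429, minus strand) and HLA-C (chr6:31272043-31272342, minus strand), since these genes had very different levels below. Capitals mark letters searched on both strands, which are the kappaB core GGGATTCC, the core TGACG of the CRE and X2 box, the CCAAT box, the core GAAANNGAA of the interferon-stimulated response element and the core TTCNNNGAA of the gamma-activated site.
HLA-B: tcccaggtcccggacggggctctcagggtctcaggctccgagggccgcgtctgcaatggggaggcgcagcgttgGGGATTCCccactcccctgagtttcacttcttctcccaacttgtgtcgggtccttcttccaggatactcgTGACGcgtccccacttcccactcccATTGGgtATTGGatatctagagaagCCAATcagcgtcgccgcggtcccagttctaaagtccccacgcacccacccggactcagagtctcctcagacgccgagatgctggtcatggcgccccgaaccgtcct
HLA-C: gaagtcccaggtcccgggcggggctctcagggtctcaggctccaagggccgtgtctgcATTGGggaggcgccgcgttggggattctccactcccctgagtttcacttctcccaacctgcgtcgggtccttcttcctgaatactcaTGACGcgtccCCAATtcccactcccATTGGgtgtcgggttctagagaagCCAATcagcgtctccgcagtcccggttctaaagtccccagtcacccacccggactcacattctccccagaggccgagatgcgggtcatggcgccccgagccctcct
Aligned with gaps, the windows had 88.5% identical columns (269 of 304). The kappaB core, held by 1.12% of 35116 RefSeq promoter windows of this length, was found in HLA-B and not in HLA-C. TGACG was found 106 and 105 bases before the start, and this motif is in 24.6% of all windows. CCAAT, in 34.6% of all windows, was found 3 times in HLA-B and 4 times in HLA-C.

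The promoters of B2M (chr15:44711267-44711566, plus strand) and of TAP1 (chr6:32853655-32853954, minus strand) are shown because both hold overlapping copies of the interferon-stimulated response element core, and that of PSMB9 (chr6:32853942-32854241, plus strand) because PSMB9 starts back to back with TAP1.
B2M: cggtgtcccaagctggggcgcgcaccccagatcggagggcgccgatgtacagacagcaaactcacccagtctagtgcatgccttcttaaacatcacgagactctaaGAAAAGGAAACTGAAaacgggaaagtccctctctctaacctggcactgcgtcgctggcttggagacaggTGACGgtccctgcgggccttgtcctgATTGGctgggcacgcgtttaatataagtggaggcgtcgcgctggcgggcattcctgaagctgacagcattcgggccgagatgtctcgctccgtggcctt
TAP1: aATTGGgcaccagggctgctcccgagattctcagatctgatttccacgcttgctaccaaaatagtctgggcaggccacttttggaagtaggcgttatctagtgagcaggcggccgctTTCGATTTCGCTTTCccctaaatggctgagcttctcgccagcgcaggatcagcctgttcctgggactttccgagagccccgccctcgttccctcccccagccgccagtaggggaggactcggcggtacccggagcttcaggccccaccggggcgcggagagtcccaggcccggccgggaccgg
PSMB9: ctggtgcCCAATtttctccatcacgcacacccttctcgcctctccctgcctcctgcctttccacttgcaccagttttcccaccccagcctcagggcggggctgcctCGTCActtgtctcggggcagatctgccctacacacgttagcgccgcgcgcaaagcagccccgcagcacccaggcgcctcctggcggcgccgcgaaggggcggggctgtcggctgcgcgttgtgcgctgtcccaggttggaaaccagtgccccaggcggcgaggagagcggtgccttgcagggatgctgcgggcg
The interferon-stimulated response element core is in 8.11% of all windows. It was found at 2 places each in B2M (first bases 144 and 138 before the start), TAP1 (133 and 127 before) and TAPBP (20 and 14 before), and at 1 each in TAP2 (58 before) and in the second window of PSMB8. The gamma-activated site core, in 7.66% of all windows, was found in the second windows of TAP1 and PSMB8. These matches describe the letters in these windows only. The search was for exact letters, so a window without a match can still hold a variant form of the element.

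The question put to the counts was whether class I presentation genes differ between Huh-7 with RAC3 overexpression and the negative control. HLA-E was lower and B2M was higher with RAC3 overexpression, each by less than 1.5-fold, and the other 7 genes did not pass the adjusted threshold. Of the 9 members, all of which passed the filter on low counts, 2 had an adjusted p below 0.05 (22.2%), 1 in each direction. Among all 12941 genes tested, 28.5% passed, 13.3% as higher and 15.3% as lower, so the members' share was close to that of the whole table. No member had a fold change above 1.5 with an unadjusted p below 0.05, the study's thresholds, which 4.68% of all genes passed. In 2 members the groups did not overlap, against 42.5% of all genes. The median log2 fold change of the members was 0.09, and that of all genes was 0.004.

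**Figure D1:**
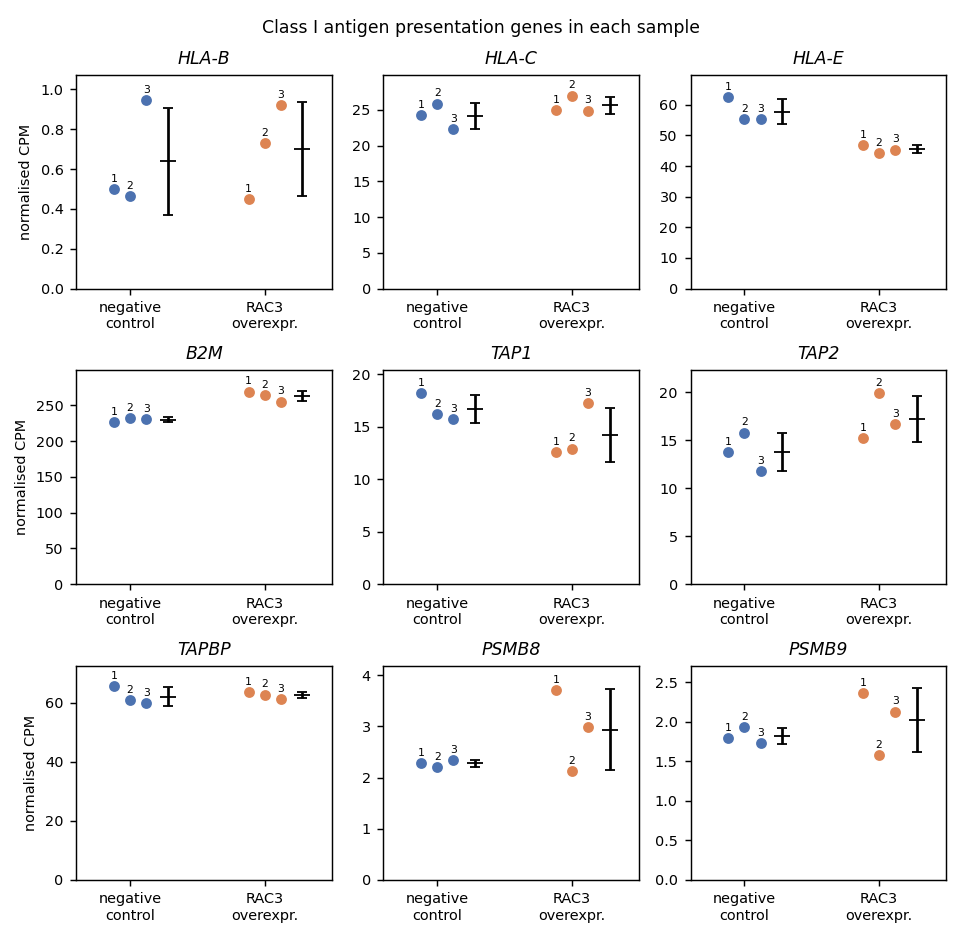
Normalised CPM (vertical axes, each from 0) of the 9 class I genes in the negative control (blue) and with RAC3 overexpression (orange). Points are samples with their replicate number, and bars are mean ± SD (n = 3). The groups are apart only for HLA-E (44.2 to 46.8 against 55.3 to 62.6) and B2M (255 to 269 against 226 to 232).

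HLA-E (ENSG00000204592, GRCh38 chromosome 6, 30489467 to 30494205, plus strand) had 62.6, 55.4 and 55.3 normalised CPM in negative control 1, 2 and 3 and 46.8, 44.2 and 45.4 in RAC3 overexpression 1, 2 and 3. Every RAC3 overexpression sample lay below every negative control sample. The mean fell from 57.8 ± 4.19 to 45.5 ± 1.31 (SD, n = 3 each), a change of −21.2%. The log2 fold change was −0.34 (SE 0.0661, 95% interval −0.48 to −0.20, adjusted p = 0.000732, edgeR). It passed under all 15 other settings of the processing, between −0.38 and −0.25.

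HLA-C (ENSG00000204525, chromosome 6, 31268749 to 31272130, minus strand) had 24.3, 25.9 and 22.3 normalised CPM in the negative control and 25.0, 27.0 and 24.9 with RAC3 overexpression, and the groups overlapped. Its log2 fold change was 0.09 (SE 0.0847, 95% interval −0.09 to 0.27, adjusted p = 0.469, edgeR). After a correction for GC content within each sample it was 0.28 (adjusted p = 0.0178, edgeR). The longest transcript of HLA-C is 62.7% GC, the highest of the 9 members, against 54.8% for HLA-E and 40.6%, the lowest, for B2M.

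HLA-B (ENSG00000234745, chromosome 6, 31269491 to 31357188, minus strand) had few counts in both groups. It had 7, 7 and 17 counts in the negative control and 8, 12 and 13 counts with RAC3 overexpression, which was 0.501, 0.466 and 0.948 against 0.45, 0.729 and 0.922 normalised CPM. The log2 fold change of 0.07 had a 95% interval from −0.93 to 1.08 (adjusted p = 0.925, edgeR). That interval is wide enough to hold a 1.5-fold change in either direction, so a change of that size is not excluded. Its annotated span in GENCODE 29 reaches over HLA-C, with 2640 shared bases on the same strand. Reads of heavy chain genes can also match each other, so the split of counts among them is uncertain. Whether reads from HLA-B alleles unlike the reference genome failed to align was not tested, so the low counts may understate its level.

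B2M (ENSG00000166710, chromosome 15, 44711487 to 44718877, plus strand) had 226, 232 and 231 normalised CPM in the negative control and 269, 264 and 255 with RAC3 overexpression, and every RAC3 overexpression sample was the higher. The mean rose from 230 ± 3.68 to 263 ± 7.01 (SD, n = 3 each), by 14.4%, with a log2 fold change of 0.19 (SE 0.0421, 95% interval 0.11 to 0.28, adjusted p = 0.00191, edgeR). The call was lost with the GC trend removed, where the log2 fold change was 0.07 (adjusted p = 0.179, edgeR), and held in the other 14 other settings.

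Since heavy chain and light chain together form a class I molecule, their counts were also compared within each sample. The log2 ratio of HLA-E to B2M counts was −1.849, −2.069 and −2.065 in the negative control and −2.524, −2.578 and −2.493 with RAC3 overexpression. The groups did not overlap, and the mean ratio was lower by 0.538 on the log2 scale (−1.994 ± 0.126 to −2.532 ± 0.043, n = 3 each; exact two-sided permutation p = 0.1, the smallest that 3 against 3 samples allow; 0.533 with Benjamini-Hochberg adjustment over 8 ratios). These ratios are of counts as deposited, and with the GC trend removed the log2 fold changes of HLA-E and B2M lay closer together, at −0.25 and 0.07. The ratios of HLA-C to B2M (difference −0.107, exact permutation p = 0.3) and of HLA-B to B2M (difference −0.044, exact permutation p = 1) overlapped between groups.

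Of the members that load peptides, TAP1, TAP2 and TAPBP, none passed the adjusted threshold. TAP1 (ENSG00000168394, chromosome 6, 32845209 to 32853978, minus strand) had 18.2, 16.2 and 15.7 normalised CPM in the negative control and 12.6, 12.9 and 17.2 with RAC3 overexpression. RAC3 overexpression 1 and 2 lay below all negative control samples and RAC3 overexpression 3 among them. The log2 fold change was −0.23 (SE 0.121, 95% interval −0.49 to 0.02, adjusted p = 0.161, edgeR), and without RAC3 overexpression 3 it was −0.39 (adjusted p = 0.0285).

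TAP2 (ENSG00000204267, chromosome 6, 32821833 to 32838780, minus strand) had 13.8, 15.8 and 11.8 normalised CPM in the negative control and 15.2, 19.9 and 16.7 with RAC3 overexpression. The groups overlapped in 1 sample of each. The log2 fold change was 0.33 (SE 0.124, 95% interval 0.07 to 0.59, adjusted p = 0.054, edgeR). It passed without negative control 2 (0.43, adjusted p = 0.0324, edgeR) and without RAC3 overexpression 1 (0.41, adjusted p = 0.0344), and not without any other single sample. The gene lies wholly within AL669918.1 (ENSG00000250264), a row of the table on the same strand, and that row had 0, 0 and 49 counts in the negative control and 49, 0 and 49 with RAC3 overexpression. Within each group, the samples with 49 counts in that row had less TAP2 than those with 0. With both rows summed, an alternative chosen after seeing the data, the level was 13.8, 15.8 and 14.5 normalised CPM in the negative control and 18.0, 19.9 and 20.1 with RAC3 overexpression. These groups did not overlap, and the log2 fold change of the sum was 0.39 (SE 0.0991, 95% interval 0.18 to 0.60, adjusted p = 0.0059, edgeR). The call on TAP2 thus changed with whether these rows were summed.

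TAPBP (ENSG00000231925, chromosome 6, 33299694 to 33314387, minus strand) had 65.6, 60.8 and 59.7 normalised CPM in the negative control and 63.5, 62.7 and 61.3 with RAC3 overexpression, all within the range of the negative control. Its log2 fold change was 0.01 with a 95% interval from −0.11 to 0.14 (SE 0.0593, adjusted p = 0.897, edgeR). The log2 ratio of TAP1 to TAP2 counts, as deposited, was 0.282 ± 0.213 in the negative control and −0.282 ± 0.337 with RAC3 overexpression (SD, n = 3 each; exact permutation p = 0.2), and the groups overlapped.

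**Figure D2:**
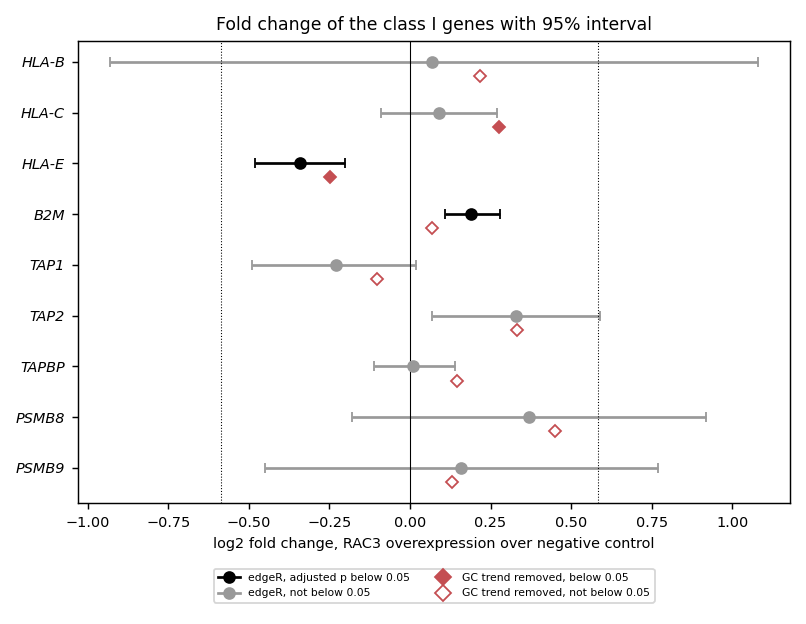
Log2 fold change of RAC3 overexpression over negative control (horizontal axis) for the 9 class I genes, with the 95% interval of edgeR's quasi-likelihood fit (circles, black where the adjusted p is below 0.05) and the value with the GC trend removed (diamonds, filled where below 0.05). Dotted lines mark 1.5-fold; HLA-E passes in both fits, B2M only in the first and HLA-C only in the second.

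The immunoproteasome subunits were low in Huh-7. PSMB8 (ENSG00000204264, chromosome 6, 32840717 to 32844703, minus strand) had 2.29, 2.2 and 2.34 normalised CPM in the negative control and 3.71, 2.13 and 2.98 with RAC3 overexpression, from 32 to 66 counts a sample. RAC3 overexpression 2 was the lowest of all 6 samples and the other RAC3 overexpression samples were the highest. The log2 fold change was 0.37 (SE 0.264, 95% interval −0.18 to 0.92, adjusted p = 0.317, edgeR).

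PSMB9 (ENSG00000240065, chromosome 6, 32844136 to 32859585, plus strand) had 1.79, 1.93 and 1.73 normalised CPM in the negative control and 2.36, 1.58 and 2.13 with RAC3 overexpression. RAC3 overexpression 2 was again the lowest of the 6 samples and the other RAC3 overexpression samples the highest. Its log2 fold change was 0.16 (SE 0.291, 95% interval −0.45 to 0.77, adjusted p = 0.727, edgeR). PSMB9 shares 8770 bases with TAP1 and 568 with PSMB8 on the opposite strand in the annotation, and whether counting used the strand is not given in the sources used here.

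PSMB10, the remaining immunoproteasome subunit, had 5.8, 7.72 and 5.13 normalised CPM in the negative control and 7.54, 8.38 and 7.23 with RAC3 overexpression (log2 fold change 0.32, SE 0.169, adjusted p = 0.169, edgeR). With the GC trend removed it passed, at 0.48 (adjusted p = 0.0455, edgeR). The constitutive counterparts PSMB5, PSMB6 and PSMB7 had log2 fold changes of 0.06, 0.04 and 0.03, none past the threshold, and PSMB6 passed with the GC trend removed (0.13, adjusted p = 0.0302, edgeR). On the FPKM scale, which is per transcript length, the mean log2 ratio of PSMB8 to PSMB5 was −6.654 in the negative control and −6.351 with RAC3 overexpression. That of PSMB9 to PSMB6 was −6.635 and −6.493, and that of PSMB10 to PSMB7 was −5.075 and −4.769. All 3 ratios overlapped between groups (exact two-sided permutation p = 0.5, 0.8 and 0.4, n = 3 each). The immunoproteasome transcripts were thus far below the constitutive ones in both groups.

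**Figure D3:**
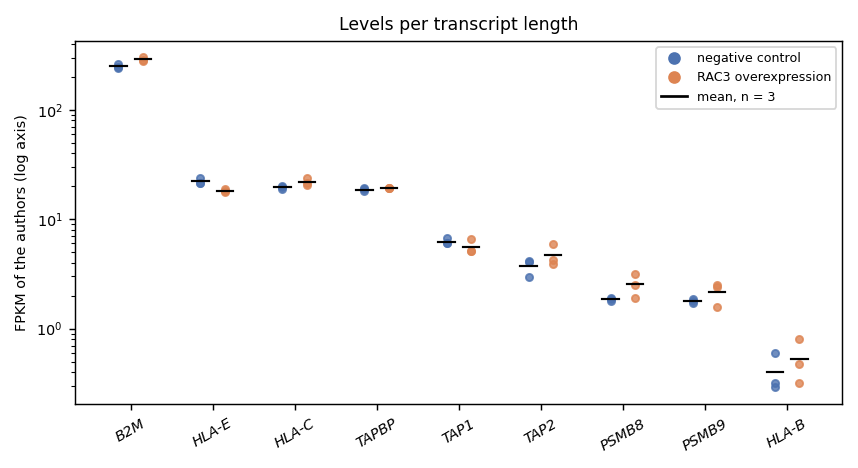
FPKM made by the authors (log axis) of the 9 class I genes, ordered by the negative control mean, in the negative control (blue) and with RAC3 overexpression (orange). Points are samples and lines are means (n = 3); B2M is highest (249 and 290) and HLA-B lowest (0.403 and 0.532).

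Levels per length were compared on the authors' FPKM. B2M was the highest, with 249 ± 10.3 FPKM in the negative control and 290 ± 11.6 with RAC3 overexpression (SD, n = 3 each). HLA-E had 22.2 ± 1.43 and 18.2 ± 0.617 FPKM, HLA-C 19.5 ± 0.636 and 22.0 ± 1.72 FPKM, and TAPBP 18.6 ± 0.585 and 19.2 ± 0.0937 FPKM. HLA-E was above HLA-C in every negative control sample (lowest HLA-E 21.4, highest HLA-C 19.9 FPKM), whereas with RAC3 overexpression every sample of HLA-C (20.6 to 23.9 FPKM) was above every sample of HLA-E (17.6 to 18.8 FPKM). In limma on log2(FPKM + 0.1), an alternative added after seeing the data, HLA-E was lower (log2 fold change −0.29, adjusted p = 0.0253). The rise of HLA-C in that fit did not pass (0.17, adjusted p = 0.134). HLA-C and TAPBP overlapped in the negative control.

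TAP1 had 6.24 ± 0.378 and 5.61 ± 0.863 FPKM, and TAP2 3.73 ± 0.654 and 4.7 ± 1.1 FPKM, with overlapping ranges only with RAC3 overexpression. PSMB8 (1.85 ± 0.0549 and 2.53 ± 0.63 FPKM) and PSMB9 (1.78 ± 0.079 and 2.15 ± 0.503 FPKM) overlapped in both groups. HLA-B was below all other members in every sample (0.403 ± 0.172 and 0.532 ± 0.25 FPKM). By these values the promoters shown for HLA-B and HLA-C, alike in most of their letters, belong to the lowest member and to one of the highest. The HLA-B level rests on 7 to 17 counts a sample, and the split of counts among heavy chain genes is uncertain. A loss of HLA-B reads in alignment was not tested. The letters are those of the reference genome, and a link between promoter and level was not tested.

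The genes that act beside the members were taken as 5 lists, and each list's own count is given beside the background of 28.5%. With the GC trend removed, the background was 2684 of 12863 genes tested, 1273 of them higher. Of 14 other class I and class I-like chains, 8 could be tested, 0 were higher and 3 lower, with a median log2 fold change of −0.20. Among them were FCGRT, the neonatal Fc receptor heavy chain, which also binds B2M (36.0 ± 1.51 to 26.1 ± 2.44 normalised CPM, log2 fold change −0.47, SE 0.0803, adjusted p = 0.000247, edgeR), and ULBP1, a ligand of the activating receptor NKG2D (14.5, 14.6 and 13.4 to 11.8, 9.11 and 9.08 normalised CPM, log2 fold change −0.49, SE 0.126, adjusted p = 0.00613). Both were lower in every RAC3 overexpression sample and passed under all 15 other settings of the processing. With the GC trend removed, FCGRT was at −0.28, ULBP1 at −0.59, and 2 of the 8 were lower.

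Of 19 genes of peptide loading, trimming and class I quality control, 18 could be tested, 1 was higher and 3 lower, with a median of 0.0. UGGT1, which reglucosylates misfolded glycoproteins and returns them for folding, was higher (log2 fold change 0.13, adjusted p = 0.037, edgeR). THOP1, a cytosolic peptidase that destroys peptides (−0.20, adjusted p = 0.00275, edgeR), SEC61A1, the channel subunit of the translocon (−0.14, adjusted p = 0.0051), and WWP2, a ubiquitin ligase (−0.16, adjusted p = 0.0281), were lower. None of these 4 passed with the GC trend removed, where THOP1 was at 0.0 (adjusted p = 0.972), and 1 other gene of the list was higher and 1 lower. SEC61A1 was also lost with library size alone (−0.09, adjusted p = 0.0635, edgeR). UGGT1 (0.06 to 0.18) and WWP2 (−0.20 to −0.03) passed in only 7 and 8 of 15 settings, and both were lost when any 1 of negative control 1, negative control 2, RAC3 overexpression 2 or RAC3 overexpression 3 was left out, UGGT1 also without negative control 3.

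Of 10 proteasome catalytic subunits and activators, all could be tested and 2 were higher, with a median of 0.07. These were PSME4, a proteasome activator (152 ± 3.91 to 176 ± 12.4 normalised CPM, log2 fold change 0.22, adjusted p = 0.00439, edgeR), and POMP, the proteasome assembly chaperone (48.6 ± 1.87 to 56.1 ± 2.67, log2 fold change 0.21, adjusted p = 0.0188). Neither passed with the GC trend removed (0.10 and 0.02), where 3 other genes of the list were higher, namely PSMB10, PSMB6 and PSME2 (0.21, adjusted p = 0.0191, edgeR), and PSMF1, a proteasome inhibitor, was lower (−0.12, adjusted p = 0.0248). PSME2, a subunit of the interferon-inducible activator, and PSMF1 are named for this change, after their values were seen. Without that correction, POMP was also lost without negative control 1, negative control 2 or RAC3 overexpression 2.

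Of 24 regulators of class I transcription and interferon gamma signalling genes, 5 were higher and 3 lower, with a median of 0.04. SOCS1, an inhibitor of JAK kinases, was 2.72 ± 0.765 normalised CPM in the negative control and 5.56 ± 0.786 with RAC3 overexpression (log2 fold change 1.04, SE 0.226, adjusted p = 0.00193, edgeR). JAK2, a kinase bound to the interferon gamma receptor, was 2.58 ± 0.52 and 4.52 ± 0.503 (log2 fold change 0.79, SE 0.226, adjusted p = 0.0128). SOCS1 and JAK2 also passed 1.5-fold. IFNGR1, the ligand-binding receptor chain, rose from 36.3 ± 2.41 to 48.9 ± 1.46 (0.43, SE 0.0688, adjusted p = 0.000137, edgeR). IFNGR2, the partner chain, fell from 59.1 ± 0.235 to 52.7 ± 0.531 (−0.17, SE 0.0578, adjusted p = 0.0382, edgeR), but passed in only 4 of 15 other settings and lost its call when any 1 sample was left out (−0.17 to −0.07 over the 15 settings). JAK2 was lost without negative control 2, at values from 0.65 to 0.98 over the settings.

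IRF1, a transcription factor of interferon response genes, was higher (44.1 ± 4.04 to 53.1 ± 4.07 normalised CPM, log2 fold change 0.27, adjusted p = 0.0105, edgeR). CREB1, which binds the X2 box, was higher (0.20, adjusted p = 0.0269, edgeR), with 0.03 when the GC trend was removed. USF2, an E box factor (−0.31, adjusted p = 0.000566, edgeR, and −0.16 with the GC trend removed) and RFXANK, a subunit of the X box complex (−0.16, adjusted p = 0.0456), were lower. NLRC5, the class I transactivator, had 2.08, 1.13 and 1.06 normalised CPM in the negative control and 1.86, 2.49 and 2.06 with RAC3 overexpression, overlapping (log2 fold change 0.60, adjusted p = 0.184, edgeR). IRF1 (0.21 to 0.34) was lost without negative control 2, negative control 3 or RAC3 overexpression 2. CREB1 (0.03 to 0.26) passed in 9 of 15 settings. Its call was lost without negative control 2, negative control 3 or RAC3 overexpression 3, in DESeq2 and with the replicate block. The CREB1 call was also lost with the GC trend removed (adjusted p = 0.803, edgeR). RFXANK (−0.22 to 0.0) passed in 6 of 15 settings and was lost without any 1 sample but RAC3 overexpression 2. With the GC trend removed 4 of the 24 were higher and 1 lower.

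Of 14 genes of the class II pathway, which presents peptides from outside the cell, 4 could be tested, and 7 had at most 3 counts over all samples together. CTSS, a lysosomal protease, was higher (2.68 ± 0.219 to 4.61 ± 0.428 normalised CPM, log2 fold change 0.78, adjusted p = 0.00898, edgeR) and HLA-DQB1 was lower at very low counts (0.827 ± 0.276 to 0.239 ± 0.135, log2 fold change −1.69, adjusted p = 0.0277), with a median over the 4 of 0.0. HLA-DQB1 passed in 9 of 14 settings, at values from −2.27 to −1.41. It was lost without negative control 1, RAC3 overexpression 2 or RAC3 overexpression 3, and with only genes at 0 counts removed.

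**Figure D4:**
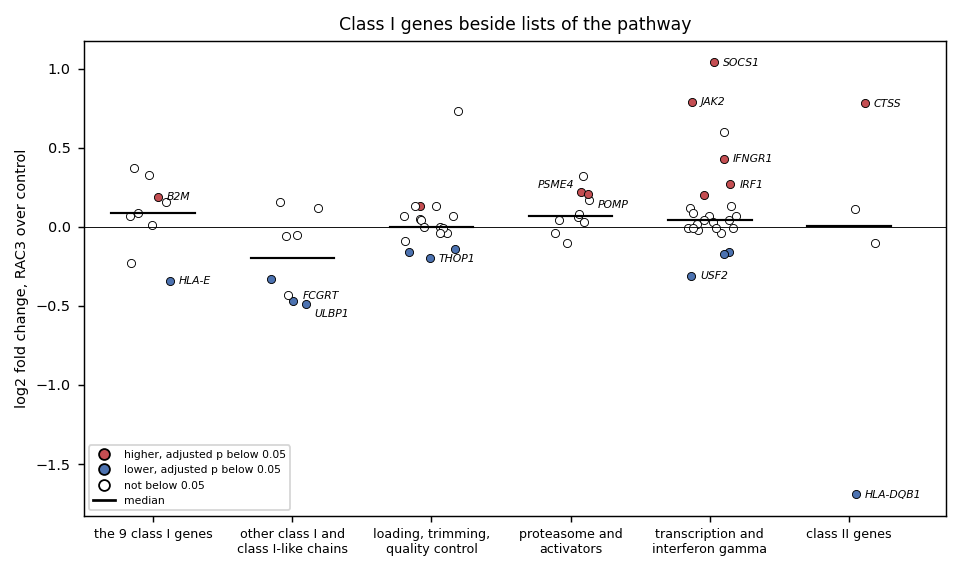
Log2 fold change (vertical axis) of each tested gene of the 9 class I genes and of 5 lists of the pathway, with red for higher and blue for lower at an adjusted p below 0.05 in edgeR, white for genes that did not pass, and a line at the median. HLA-E (−0.34) and B2M (0.19) lie closer to 0 than SOCS1 (1.04) and JAK2 (0.79).

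Between HLA-E and TAPBP, the outermost members on chromosome 6 (30489467 to 33314387), 81 other genes were tested. Of these 0 were higher and 25 lower (30.9%, edgeR, adjusted p below 0.05), with a median log2 fold change of −0.13. Among all genes tested, 28.5% passed, 13.3% as higher and 15.3% as lower. The share called in either direction was thus close to that of all genes. By direction it was not, since in this fit every call among these neighbours was lower, as for HLA-E. With the GC trend removed, 2 of the 81 were higher and 10 lower, with a median of −0.03. In that fit 2684 of all 12863 genes tested passed, 1273 of them as higher. The genes whose pattern over the 6 samples was most like that of HLA-E, among 11215 with a mean of at least 50 counts, were ARHGEF16, HCN4 and GADD45B. Their root mean square difference of centred log2 CPM was 0.0097, 0.016 and 0.017. This ranking includes the difference between the groups, so their log2 fold changes (−0.34, −0.35 and −0.33) are near that of HLA-E by construction. A shared regulation was not tested.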

How the data were processed

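The deposited table gives raw counts and FPKM values (scaled by length and depth), both made by the authors for each gene from poly(A) RNA of 6 Huh-7 samples. The submitters' processing notes name Bowtie2 2.2.8, HISAT2, StringTie 1.3.1 and DESeq2 without roles; the genome build and strand setting are not given in the sources used here. Of the identifiers, 20113 are in GENCODE 29 (GRCh38), which gave positions and GC content, and 219 are not. FPKM and counts do not keep one fixed length per gene.

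The test was that of edgeR 4.0.16 (R 4.3.3): filterByExpr (12941 genes), TMM, quasi-likelihood F test, two-sided, Benjamini-Hochberg adjustment over all genes tested, no covariate. SD and n are over samples, and the biological coefficient of variation was 0.0533. Alternatives were scaling by DESeq2 size factors, by upper quartile or by library size alone, 2 other filters, DESeq2 1.42.0, limma-voom (limma 3.58.1), a replicate block, removal of each library's GC trend (lowess, span 0.3, 12863 genes, 99.4%) and leaving out each sample. Added after seeing the data were limma on log2(FPKM + 0.1) and the sum of TAP2 with the row that overlaps it. Ratios were compared by exact permutation tests. The main edgeR fit was tested on simulated counts, and the alternatives and the ratios were not.

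The members and lists were chosen with earlier results of these data known. Named genes are the 9 members, RAC3, up to 5 genes per list and direction with an adjusted p below 0.05, PSMB5, PSMB6, PSMB7 and PSMB10, and the 3 genes most like the member with the smallest p; NLRC5 was added for its role, with its values known, and AL669918.1 because it overlaps TAP2. One gene given by this rule is counted in its list but not reported here. Motif matches come from RefSeq promoter windows.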

Additional observations from a re-analysis of the deposited data

How the results depend on the processing

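HLA-E and RAC3 kept their direction and their side of the threshold in all 15 other settings, and B2M in 14 (0.07 with the GC trend removed, adjusted p = 0.179, edgeR). HLA-C passed only with the GC trend removed (0.28), and TAP1 only without RAC3 overexpression replicate 3 (−0.39). TAP2 passed with library size alone (0.38), with only genes at 0 counts removed (0.32), with the replicate block (0.32), without negative control replicate 2 (0.43), without RAC3 overexpression replicate 1 (0.41) and, among the alternatives chosen after seeing the data, when summed with the overlapping row (0.39). The sign turned, in values that did not pass in any setting, for HLA-B without negative control replicate 1 (−0.07), without negative control replicate 2 (−0.11) and without RAC3 overexpression replicate 3 (−0.15), and for TAPBP without negative control replicate 2 (−0.01) and without negative control replicate 3 (−0.02). Over the fits that leave out 1 sample, HLA-B ranged from −0.15 to 0.50 and TAPBP from −0.0201 to 0.0494. The cause of these changes was not tested. The count of members that passed was 2 or 3 in every setting, and 3 with the replicate block. Same-numbered samples did not deviate together (correlations −0.087, −0.046 and −0.021 over 11221 genes), so the numbers were not taken as pairs; the block moved the calls over all genes from 3691 to 3261. With library size alone, which moves the median log2 fold change of all genes to 0.06, 2613 of 3994 calls were higher, against 1717 of 3691. Depth limits HLA-B, PSMB8 and PSMB9, which had 7 to 66 counts a sample.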
